A study of Mus musculus with 27 samples.

Results

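MHC class I heavy chains, their light chain B2m and the transactivator Nlrc5 were followed across 9 groups of mouse mixed glia cultures, as 10 named genes out of the 54532 in the count table, each found there once by its symbol. The members are the classical heavy chains H2-K1 and H2-D1, the nonclassical chains H2-Q4, H2-Q6, H2-Q7, H2-T22, H2-T23 and H2-M3, together with B2m and Nlrc5. All 10 passed the filter on low counts in both experiments, H2-Q6 and H2-Q7 with only a few reads outside the LPS groups. RNA sequencing had been done on 27 libraries of cortical glia from C57BL/6 mice taken on postnatal days 3 to 6, grown for 14 days and then treated for 24 h. The question put by the study is what bryostatin-1, a modulator of protein kinase C, does to innate immune responses of the central nervous system. Experiment 1 held LPS with IFNγ and bryostatin, LPS with IFNγ, LPS with bryostatin, LPS alone, and untreated glia. Experiment 2 held IL-4 with bryostatin, bryostatin alone, IL-4 alone, and untreated glia of its own. Each group had 3 libraries, and all groups were wild type. Doses were 50 nM bryostatin, 100 ng/mL LPS (a bacterial cell wall product that activates Toll-like receptor 4), 20 ng/mL IFNγ and 20 ng/mL IL-4. Nothing in the labels ties the 3 replicates of a group to separate cultures or mice, so a p-value here reflects library-to-library spread that could be technical.

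A class I heavy chain is carried to the cell surface together with B2m and a short peptide made by the proteasome and loaded in the endoplasmic reticulum, where TAP brings the peptides in. H2-K1 and H2-D1 show peptides of the cell's own proteins to CD8 T cells, while nonclassical chains bind narrower sets of ligands and are read by T cells and natural killer cells. Transcription of class I genes is driven by NF-κB, by interferon-activated factors of the IRF and STAT families, and by Nlrc5, which does not bind DNA itself but is recruited by RFX, CREB/ATF and NF-Y factors on the SXY module of the promoter.

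The promoter windows of 6 members are shown because these elements, as letters, recur in most of the heavy chains and in B2m. Of the 10 members, 9 had a promoter in the RefSeq table (GRCm38.p6, 250 bases before to 50 after the gene start), and each line below runs 5′ to 3′ on the strand of its gene. Capitals mark matches to an interferon element (GTTTCACTT, or TTTC, any 2 bases and TTTC), to the X2 element of SXY (TGNTGAC), to an NF-κB-like run (GGG, any 5 bases and CC) and to CCAAT, the NF-Y letters, each on either strand and with touching matches run together. H2-K1 is on the minus strand (chr17:34000329-34000464), H2-Q7 on the plus strand (chr17:35439015-35439149), H2-T22 and H2-T23 on the minus strand (chr17:36042795-36042960 and chr17:36032743-36032851), H2-M3 on the plus strand (chr17:37270106-37270223) and B2m on the plus strand (chr2:122147522-122147644).
H2-K1: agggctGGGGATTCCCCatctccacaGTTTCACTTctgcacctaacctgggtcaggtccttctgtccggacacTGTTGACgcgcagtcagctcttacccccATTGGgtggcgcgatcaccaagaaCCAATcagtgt
H2-Q7: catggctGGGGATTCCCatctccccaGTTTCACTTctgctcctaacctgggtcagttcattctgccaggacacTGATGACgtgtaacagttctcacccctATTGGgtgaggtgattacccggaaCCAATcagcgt
H2-T22: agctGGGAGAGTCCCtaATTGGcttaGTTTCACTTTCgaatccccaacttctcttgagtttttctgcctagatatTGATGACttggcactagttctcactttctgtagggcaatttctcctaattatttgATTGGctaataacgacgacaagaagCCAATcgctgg
H2-T23: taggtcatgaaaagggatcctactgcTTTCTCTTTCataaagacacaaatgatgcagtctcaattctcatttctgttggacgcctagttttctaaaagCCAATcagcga
H2-M3: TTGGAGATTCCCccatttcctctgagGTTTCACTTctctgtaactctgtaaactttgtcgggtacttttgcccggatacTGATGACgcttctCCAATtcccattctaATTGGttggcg
B2m: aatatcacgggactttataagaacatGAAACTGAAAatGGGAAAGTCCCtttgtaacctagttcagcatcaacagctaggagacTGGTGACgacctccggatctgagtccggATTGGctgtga

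In 8 of the 9 promoters an interferon element was followed by X2 and then by CCAAT. The spacing from the interferon element to X2 was 47 bases in H2-K1, H2-D1, H2-Q4, H2-Q6 and H2-Q7, 49 in H2-T22, 53 in H2-M3 and 58 in B2m. From X2 to a CCAAT match it was 27 or 28 bases in 7 of these 8, the exception being H2-T22 with 55. H2-T23 held the general interferon letters and CCAAT but not this order, since its X2 letters lay downstream of CCAAT. They were on the other strand at -19, outside the window shown, and H2-T23 had no NF-κB-like match. Among all 32851 promoters of the table, GTTTCACTT was in 0.4%, the general interferon letters in 3.44%, TGNTGAC in 14.1%, CCAAT in 37.4% and the NF-κB-like letters in 50.8%. The ordered series of interferon element, X2 and CCAAT stood in 19 promoters (0.058%), of 17 genes. These patterns were chosen after the class I promoters had been read, so the shares describe the letters and test nothing, and a match is not a bound site.

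**Figure D1:**
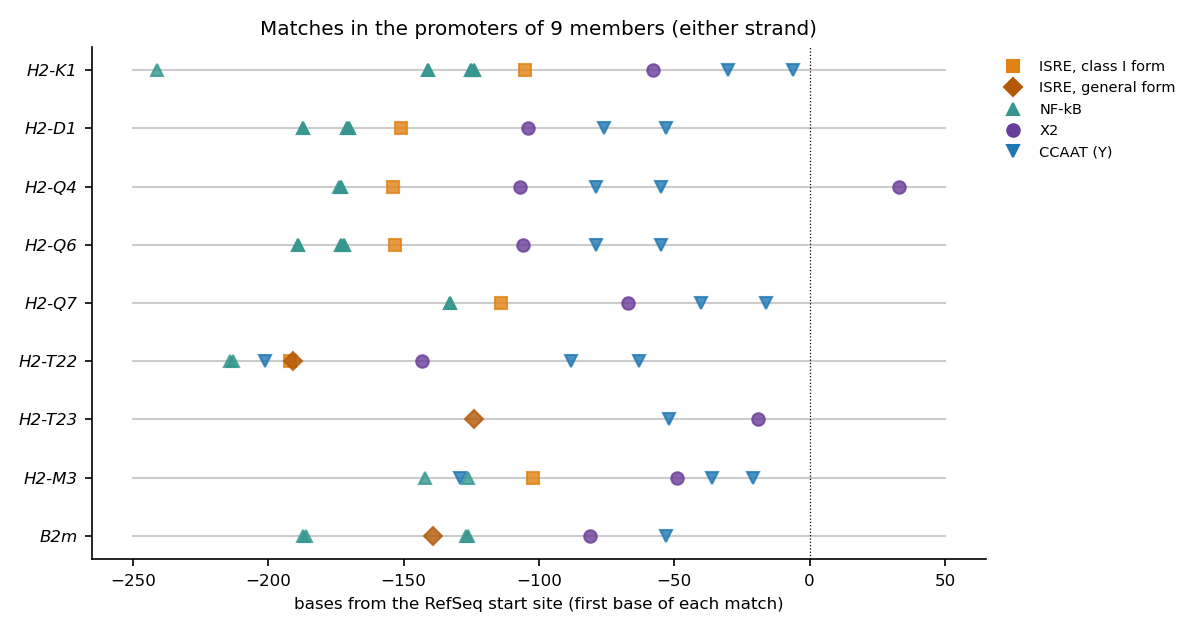
Positions of matches to the interferon element, X2, the NF-κB-like run and CCAAT in the RefSeq promoters of 9 members, in bases from the gene start (x axis), 1 row per gene. The interferon element lies upstream of X2 and X2 upstream of a CCAAT match in every row but that of H2-T23.

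Libraries held between 17230058 and 28687281 counts, at which 3 counts amount to 0.105 to 0.174 CPM (counts scaled to a library total of 1000000). Levels are given as CPM scaled with TMM factors, and levels of different genes are compared only per kilobase of the deposited gene length. Both untreated libraries numbered 1 were more like the other experiment's untreated group than their own: over 14142 genes, Pearson's r of log2(CPM + 1) was 0.995 with both other libraries of that group and 0.963 to 0.964 with its own for the library of experiment 1, and 0.968 to 0.979 and 0.94 to 0.951 for that of experiment 2. Sox10, an oligodendrocyte lineage marker, had 0.161, 33.4 and 30.1 CPM in untreated libraries 1, 2 and 3 of experiment 1. In those of experiment 2 it had 39.0, 0.281 and 0.228 CPM. Among the members, H2-Q4 had 10.7, 21.8 and 21.3 CPM in untreated libraries 1, 2 and 3 of experiment 1 and 22.8, 15.4 and 13.8 CPM in those of experiment 2. Library 1 was likewise lowest in experiment 1 and highest in experiment 2 for H2-K1, H2-D1, H2-Q7, H2-T22, H2-T23, H2-M3 and B2m. For H2-Q6 and Nlrc5 it was not. Labels were kept, and calls of members against untreated glia are mostly given with and without both libraries numbered 1. Other values that rest on untreated glia, such as levels, shares, ratios, most fold changes and distances between patterns, are given with both libraries only. In these bulk cultures fewer cells of a type and less RNA per cell cannot be told apart. Markers of astrocytes, microglia and the oligodendrocyte lineage were present in every group. Summed over 6 microglial markers, levels were 186 to 205 CPM with LPS, IFNγ and bryostatin, 229.7 to 246 with LPS and IFNγ, 245 to 265 with LPS and bryostatin, 329.9 to 374 with LPS, and 823 to 934 in untreated glia of experiment 1. Over 6 astrocyte markers the ranges in the same order were 4436 to 4496, 6350.3 to 6854, 6396 to 6669, 8256 to 8767 and 10747 to 13549.8 CPM. Over 5 T and natural killer cell markers no library passed 0.422 CPM, with Cd3e, Cd3g and Ncr1 at 0 in every library. Class I genes can be transcribed by any nucleated cell, and the part of cell type shares in the results below was not tested.

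In the deposited annotation (mm10) the heavy chain genes lie on chromosome 17, H2-K1 at chr17:33996017-34000333 on the minus strand and H2-D1 at chr17:35262730-35267499 on the plus strand. The Qa genes follow on the plus strand, H2-Q4 at chr17:35379617-35385290, H2-Q6 at chr17:35424850-35430055 and H2-Q7 at chr17:35439155-35443773. Beyond them lie H2-T23 at chr17:36029773-36032855 and H2-T22 at chr17:36037128-36042747, both on the minus strand, and H2-M3 at chr17:37270220-37274484 on the plus strand. B2m lies at chr2:122147686-122153083 and Nlrc5 at chr8:94434356-94527272, both on the plus strand.

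Unstimulated glia already carried the classical chains, while the Qa genes H2-Q6 and H2-Q7 were close to silent. Per kilobase, B2m was the most abundant member in untreated glia of experiment 1 at 409 ± 18.7 CPM (SD, n = 3, as throughout), followed by H2-K1 at 61.4 ± 8.71 and H2-D1 at 50.7 ± 6.86. The T-region chains H2-T22 and H2-T23 stood at 9.45 ± 0.892 and 9.16 ± 2.55 CPM per kilobase, H2-Q4 at 6.91 ± 2.43 and H2-M3 at 3.64 ± 0.333. In that order, the ranges of H2-K1 and H2-D1 overlapped, as did those of H2-T22 and H2-T23 and of H2-T23 and H2-Q4. Nlrc5 was low, at 0.356 ± 0.0293 CPM per kilobase, as were H2-Q6 at 0.324 ± 0.178 and H2-Q7 at 0.205 ± 0.0809. The ranges of Nlrc5 and H2-Q6 and of H2-Q6 and H2-Q7 overlapped, and H2-Q6 rested on 10, 8 and 23 reads in those 3 libraries.

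**Figure D2:**
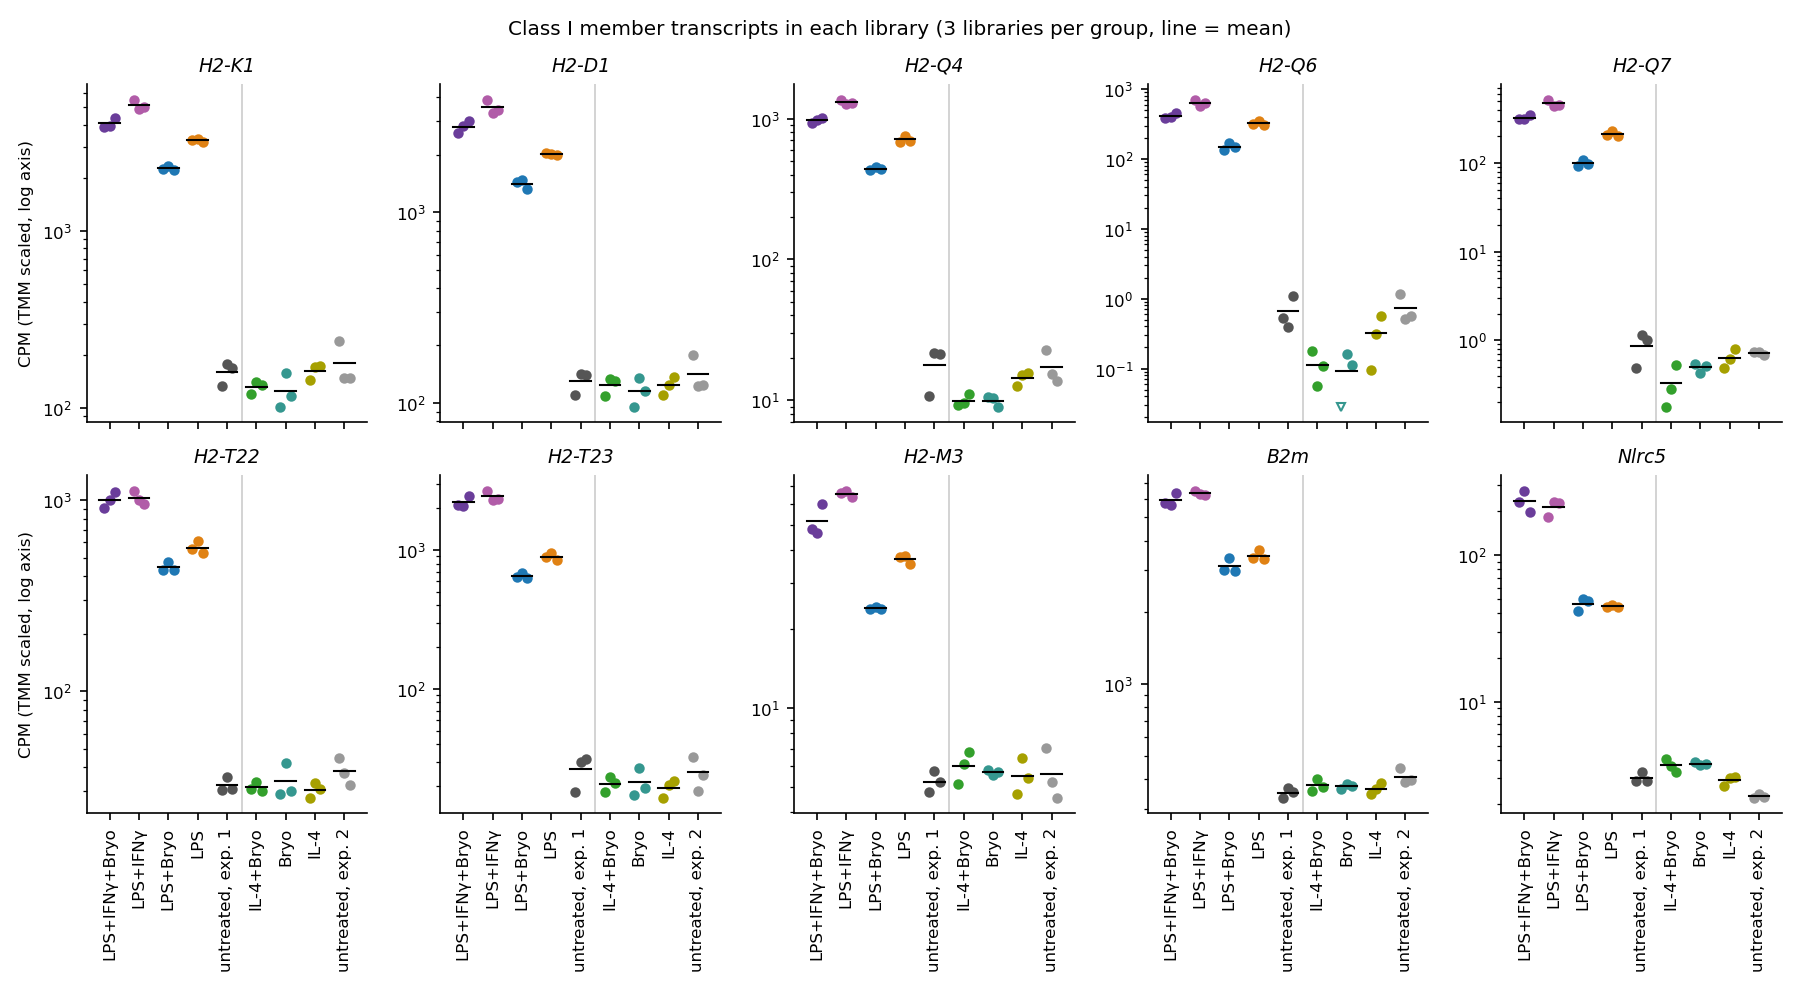
Level of each member in every library (y axis, CPM on a log scale, 1 panel per gene) by group, with experiment 1 left of the grey line, a line at each group mean, and an open triangle at the bottom for a library without reads. All 10 genes lie higher in the 4 LPS groups than in untreated glia, and H2-Q6 and H2-Q7 are near 1 CPM or below in every group of experiment 2.

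LPS raised every member. H2-K1 stood at 3274, 3333 and 3174 CPM in the LPS libraries and at 134, 177 and 169 CPM in untreated libraries 1 to 3 of experiment 1. Every LPS library was far above every untreated one, and the log2 fold change was 4.35 ± 0.11 (SE; 20.4-fold; edgeR adjusted p = 4.6e-14). All 10 members were called higher at an adjusted p under 0.05, where 19.5% of the 16073 genes tested were called higher and 38.4% called either way. Their median log2 fold change was 4.24, beside -0.01 over all genes tested. H2-D1, the other classical chain, rose by 3.95 ± 0.11 on the log2 scale. Leaving out both untreated libraries numbered 1, all 10 were called again, with H2-K1 at 4.24 ± 0.09.

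The estimates were highest for the chains that were nearly silent before stimulation. H2-Q6 had 314, 355 and 303 CPM in LPS libraries, against 0.536, 0.395 and 1.10 CPM in untreated glia. H2-Q7 had 205, 231 and 200.2 CPM in LPS libraries, against 0.482, 1.14 and 1.00 CPM in untreated glia. No untreated library came near an LPS library for either gene, and the log2 fold changes were 8.87 ± 0.21 for H2-Q6 and 7.90 ± 0.17 for H2-Q7. H2-Q4, the third Qa gene, rose by 5.30 ± 0.20, to 710.5 ± 40.0 CPM with LPS, against 17.9 ± 6.30 CPM in untreated glia. H2-T23, which encodes Qa-1, the ligand of CD94/NKG2 receptors, rose by 5.08 ± 0.17, and H2-T22, a ligand of γδ T cell receptors, by 4.13 ± 0.11. H2-M3, which presents N-formylated peptides, had the smallest estimate among the heavy chains, 2.82 ± 0.11, to 37.0 ± 1.34 CPM with LPS, against 5.23 ± 0.479 CPM in untreated glia. B2m rose by 3.30 ± 0.09 and Nlrc5 by 3.88 ± 0.15 (adjusted p over these 10 genes from 1.4e-14 for H2-Q7 to 8.8e-12 for H2-Q4). Without both untreated libraries numbered 1, H2-Q4 was at 5.04 ± 0.09 and H2-Q7 at 7.63 ± 0.16. Of 6 microglial markers, 5 fell and 1 rose with LPS, and all 4 fibroblast and meningeal markers rose, to a sum of 3512 to 4256 CPM with LPS, against 1083 to 2407 CPM in untreated glia; their part in the rise of the members was not tested.

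Some of these genes share sequence or exons with others, which bears on how reads were assigned. Of all 100-base stretches of the longest annotated transcript, 16.4% in H2-Q7, 14.2% in H2-T22, 13.9% in H2-Q4 and 13.0% in H2-Q6 also occur in transcripts of other genes, H2-Q6 and H2-Q7 sharing 166 with each other and H2-T22 sharing 163 with H2-T10. Of those of H2-T23 7.28% are shared, and of those of H2-D1 4.64%, 46 stretches being common to these 2 members, while H2-K1, H2-M3, B2m and Nlrc5 share none. Because the libraries are unstranded, reads of H2-T22 cannot be told from those of A930015D03Rik on the other strand over 1003 exon bases, nor those of H2-Q4 from Gm11131 over 496. The levels of H2-Q4, H2-Q6, H2-Q7 and H2-T22, and to a lesser extent of H2-T23 and H2-D1, are uncertain for that reason.

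IFNγ given with LPS raised every member above LPS alone, with the highest estimate for Nlrc5. Nlrc5 had 183, 232 and 227 CPM with LPS and IFNγ, against 44.0, 45.4 and 44.5 CPM with LPS. The groups did not overlap, and the log2 fold change was 2.26 ± 0.12 (4.80-fold; edgeR adjusted p = 1.0e-09). All 10 members were called higher, where 19.2% of genes were called higher and 36.0% either way, and the members' median of 0.87 stood beside -0.01 over all genes. Among the heavy chains H2-T23 had the highest estimate and H2-K1 the lowest.

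H2-T23 reached 2686, 2285 and 2351 CPM with LPS and IFNγ, against 886, 951 and 856 CPM with LPS, a log2 fold change of 1.44 ± 0.15 (edgeR adjusted p = 1.5e-06). H2-K1 reached 5510.3, 4914 and 5017 CPM with LPS and IFNγ, against 3274, 3333 and 3174 CPM with LPS, a log2 fold change of 0.66 ± 0.10 (edgeR adjusted p = 6.3e-05). In neither gene did a library of one group fall in the range of the other. The remaining estimates were 0.81 for H2-D1, 0.82 for H2-M3, 0.86 for H2-T22, 0.87 for H2-Q4, 0.87 for B2m, 0.98 for H2-Q6 and 1.15 for H2-Q7. Against untreated glia, LPS with IFNγ gave log2 fold changes from 3.64 for H2-M3 to 9.86 for H2-Q6, all 10 called higher beside 29.5% of all genes (58.1% either way). With bryostatin present, IFNγ again raised all 10 members, beside 18.9% of genes called higher (36.9% either way), by 2.32 ± 0.12 for Nlrc5, 1.77 ± 0.15 for H2-T23 and 0.85 ± 0.10 for H2-K1. Markers of several cell types also moved when IFNγ was added to LPS without bryostatin. Of 6 microglial markers 5 fell, of 6 astrocyte markers 3 fell, and of 7 oligodendrocyte lineage markers 3 fell, the last list summing to 216.5 to 231 CPM with LPS and IFNγ, against 523 to 560.1 CPM with LPS. Of 4 neuronal markers, 3 were tested and 1 rose, with sums of 101 to 117 CPM with LPS and IFNγ, against 48.4 to 52.9 CPM with LPS. The part of these shifts in the members' values was not tested.

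**Figure D3:**
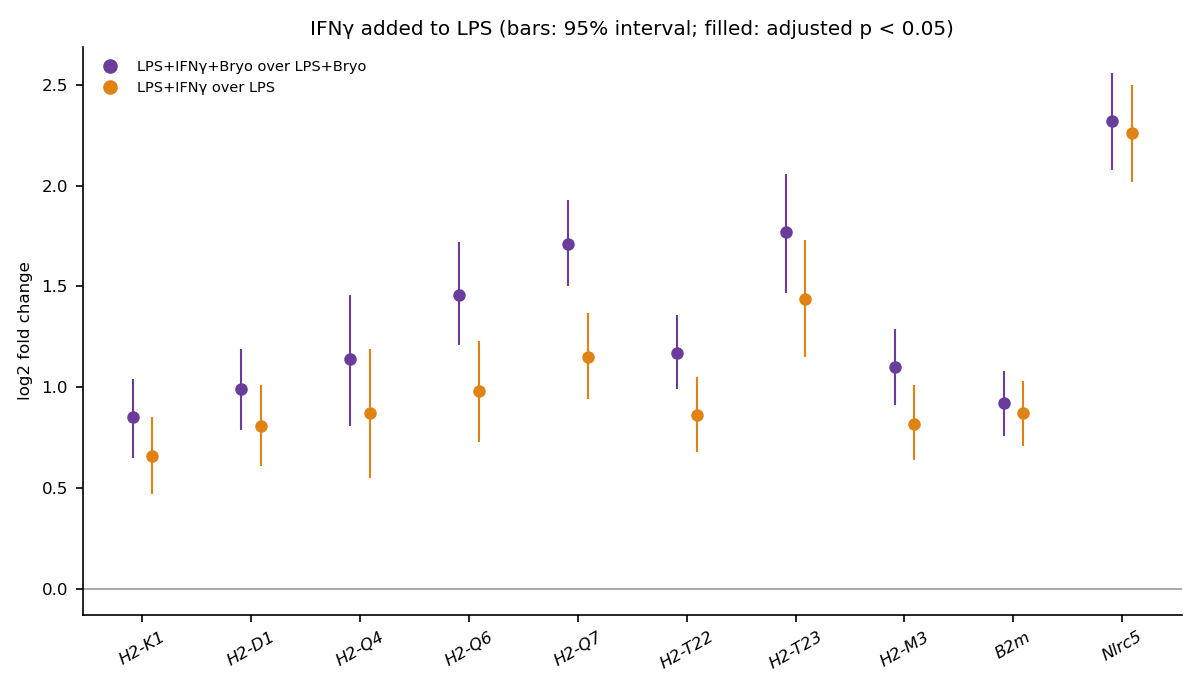
Log2 fold change of each member when IFNγ was added to LPS (y axis), with bryostatin present and without it. Bars are 95% intervals and filled points have an adjusted p under 0.05. Every point lies above 0, and Nlrc5 lies highest in both, at 2.32 and 2.26.

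The make-up of the heavy chain pool is described here by shares, which were not tested. Taken as CPM per kilobase summed over the 8 heavy chains, the pool was 5459 ± 391.8 with LPS and IFNγ, 3014 ± 92.4 with LPS and 142 ± 21.4 in untreated glia of experiment 1. H2-T23 made up 15.3% to 15.7% of it with LPS and IFNγ, 10.1% to 10.6% with LPS and 5.32% to 7.18% in untreated glia. The 3 ranges did not overlap, and the share stood higher still, at 16.8% to 17.9%, when bryostatin was added to LPS and IFNγ. H2-K1 made up 35.8% to 36.5% with LPS and IFNγ, 41.1% to 41.7% with LPS and 42.8% to 43.9% in untreated glia. H2-D1 was at 25.2%, 26.0% and 35.8% on average in those groups, and H2-M3 at 0.837%, 0.854% and 2.59%. H2-Q6 made up 5.63% with LPS and IFNγ and 5.15% with LPS, against 0.229% in untreated glia.

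The ratio of B2m to heavy chain transcripts was lower in the LPS groups than in untreated glia. The ratio of B2m to the summed heavy chains, both per kilobase, was 1.28 to 1.41 with LPS and IFNγ, 1.31 to 1.37 with LPS and 2.71 to 3.32 in untreated glia. Bryostatin groups stood higher, at 1.53 to 1.61 when added to LPS and IFNγ and at 1.72 to 1.82 when added to LPS. These ratios rest on the deposited gene lengths. In some heavy chains these exceed the longest coding transcript, as in H2-K1 (2608 against 1619 bases) and H2-T23 (2889 against 1472). In H2-Q6, H2-M3 and B2m they do not. Shorter heavy chain lengths would lower the ratios, so an excess of B2m in the LPS groups is not shown. The 10 members together took 1.9% of all counts with LPS and IFNγ, 1.22% with LPS and 0.0826% in untreated glia.

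**Figure D4:**
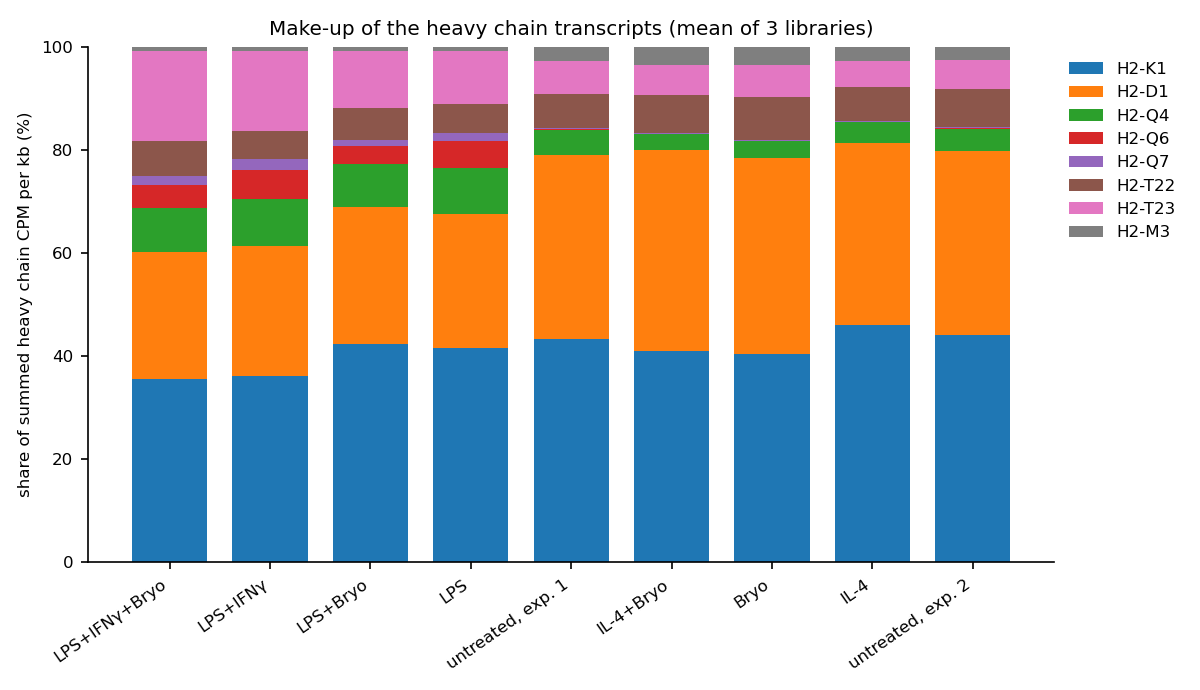
Mean share of each of the 8 heavy chains in their summed CPM per kilobase (y axis, %), 1 stacked bar per group of 3 libraries. The H2-T23 share is 15.5% with LPS and IFNγ, 10.3% with LPS and 6.37% in untreated glia of experiment 1, and Qa chains other than H2-Q4 are barely visible outside the LPS groups.

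Bryostatin given with LPS lowered 7 of the 8 heavy chains relative to LPS alone, while B2m and Nlrc5 did not pass the test. H2-K1 had 2243, 2346 and 2206 CPM with LPS and bryostatin, against 3274, 3333 and 3174 CPM with LPS. Every library with bryostatin was below every LPS library, and the log2 fold change was -0.53 ± 0.10 (1.44-fold lower; edgeR adjusted p = 0.0032). Of all genes 3.55% were called lower and 6.89% either way. The members' median was -0.52, beside 0.00 over all genes.

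The Qa chains H2-Q6 and H2-Q7 had the lowest estimates. H2-Q6 had 135, 168 and 146 CPM with LPS and bryostatin, against 314, 355 and 303 CPM with LPS, a log2 fold change of -1.11 ± 0.13 (edgeR adjusted p = 6.0e-05). H2-Q7 had 92.0, 108 and 98.0 CPM with LPS and bryostatin, against 205, 231 and 200.2 CPM with LPS, a log2 fold change of -1.10 ± 0.11 (edgeR adjusted p = 2.0e-05). The groups did not overlap in either gene. Smaller falls were found for H2-M3, at -0.63 ± 0.10 (edgeR adjusted p = 0.00072), H2-D1, at -0.51 ± 0.10 (0.0048), H2-Q4, at -0.69 ± 0.16 (0.019), and H2-T22, at -0.34 ± 0.09 (0.04). The calls of H2-Q4 and H2-T22 were lost when any 1 of the 6 libraries was left out, at adjusted p of 0.055 to 0.083 and 0.057 to 0.18. H2-T23 missed the threshold at -0.47 ± 0.15 (edgeR adjusted p = 0.07), although its groups did not overlap, and passed it at 0.00057 without untreated libraries 1.

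Nlrc5 had 41.6, 50.1 and 48.5 CPM with LPS and bryostatin, against 44.0, 45.4 and 44.5 CPM with LPS. The LPS range lay inside the other, and the difference was 0.07 ± 0.12 on the log2 scale, with a 95% interval of -0.17 to 0.30 (edgeR adjusted p = 0.84). B2m had 3019, 3365 and 2987 CPM with LPS and bryostatin, against 3379, 3657 and 3333 CPM with LPS, a difference of -0.15 ± 0.08 (95% interval -0.31 to 0.01; edgeR adjusted p = 0.36). The intervals of Nlrc5 and B2m do not reach the estimate for H2-K1. That of B2m overlaps the intervals of H2-T22 (-0.53 to -0.16) and H2-T23 (-0.75 to -0.18), and that of Nlrc5 narrowly overlaps the interval of H2-T22. Differences between members were not tested. Beside these falls, 2 of 6 microglial and 3 of 6 astrocyte markers fell, and 1 marker each of astrocytes, the oligodendrocyte lineage and neurons rose with bryostatin on LPS. The 4 neuronal markers summed to 83.2 to 93.7 CPM with LPS and bryostatin, against 48.4 to 52.9 CPM with LPS; the part of these shifts in the result was not tested. All 10 members remained far above untreated glia in the presence of bryostatin, called higher at log2 fold changes of 2.19 for H2-M3 to 7.76 for H2-Q6, beside 22.2% of genes called higher (42.1% either way).

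In experiment 1 the group means of each heavy chain ran, from high to low, LPS with IFNγ, all 3 agents, LPS, LPS with bryostatin and untreated. Neighbouring groups in that order overlapped only for H2-T22 and H2-T23, between all 3 agents and LPS with IFNγ. H2-D1 averaged 3547 ± 302 CPM with LPS and IFNγ, 2809.7 ± 205 with all 3 agents, 2021 ± 29.2 with LPS, 1415 ± 83.8 with LPS and bryostatin and 131 ± 17.7 in untreated glia. H2-T22, in the same order of groups, averaged 1026 ± 85.8, 1004 ± 91.3, 564 ± 42.7, 445 ± 24.6 and 32.3 ± 3.04 CPM. B2m had the same order of means, with overlaps between all 3 agents and LPS with IFNγ and between LPS with bryostatin and LPS. Nlrc5 differed in order, with all 3 agents first (234 ± 40.2 CPM), then LPS with IFNγ (214 ± 27.1), LPS with bryostatin (46.8 ± 4.54), LPS (44.6 ± 0.683) and untreated glia (3.02 ± 0.249), where both pairs with and without bryostatin overlapped.

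With LPS and IFNγ, bryostatin lowered H2-Q6 and H2-Q7. No other member passed the test in the fit of all libraries, beside 1.58% of genes called lower and 3.38% either way. H2-Q6 had 388, 398 and 452 CPM with all 3 agents, against 702, 579 and 641 CPM with LPS and IFNγ, a log2 fold change of -0.63 ± 0.13 (edgeR adjusted p = 0.011). H2-Q7 had 314, 316 and 347 CPM with all 3 agents, against 516, 443 and 457 CPM with LPS and IFNγ, a log2 fold change of -0.54 ± 0.11 (edgeR adjusted p = 0.011). The groups did not overlap for either gene, but both calls were lost without library 1 (0.056 and 0.054) or library 2 (0.063 for both) of the group given all 3 agents.

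Estimates for the classical chains were -0.34 ± 0.10 for H2-K1 (95% interval -0.53 to -0.15; edgeR adjusted p = 0.07) and -0.34 ± 0.10 for H2-D1 (0.085). H2-M3 was at -0.35 ± 0.09 (edgeR adjusted p = 0.051) and H2-Q4 at -0.43 ± 0.16 (0.21). In H2-K1, H2-D1, H2-M3 and H2-Q4 the groups did not overlap. DESeq2 called H2-K1, H2-D1 and H2-M3, at adjusted p of 0.014, 0.025 and 0.023. The untreated libraries numbered 1 are not compared here but share the fit. Without both of them edgeR also called H2-K1 (0.0039), H2-D1 (0.0078), H2-Q4 (0.00031) and H2-M3 (0.018). H2-T22 was at -0.03 ± 0.09 (95% interval -0.22 to 0.15), H2-T23 at -0.14 ± 0.14 (-0.43 to 0.14), and their groups overlapped. Nlrc5 stood at 229, 276 and 196 CPM with all 3 agents, against 183, 232 and 227 CPM with LPS and IFNγ, a difference of 0.13 ± 0.12 (95% interval -0.10 to 0.35). Of 6 microglial markers 2 fell, and of 6 astrocyte markers 3 fell, in this comparison, 1 of 7 oligodendrocyte lineage markers rose, and their part was not tested. Against untreated glia, the group given all 3 agents was higher in all 10 members, from 3.29 for H2-M3 to 9.22 for H2-Q6, beside 30.4% of genes called higher (60.2% either way).

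Whether bryostatin acted differently with IFNγ was tested as an interaction. No member was called by edgeR, beside 0.118% of all genes, with 3 at an unadjusted p under 0.05 and 1 called by DESeq2. Of all 16073 genes tested, 1021 had an unadjusted p under 0.05. All 10 interaction estimates were above 0, which for the heavy chains means a less negative effect with IFNγ, at a median of 0.27. H2-Q7 had 0.56 ± 0.15 (95% interval 0.26 to 0.86; edgeR adjusted p = 0.31), and was the gene that DESeq2 called, at 0.010. H2-Q6 had 0.48 ± 0.18 and H2-T22 0.31 ± 0.13. The smaller number of called members with IFNγ is therefore not shown to be a smaller effect.

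**Figure D5:**
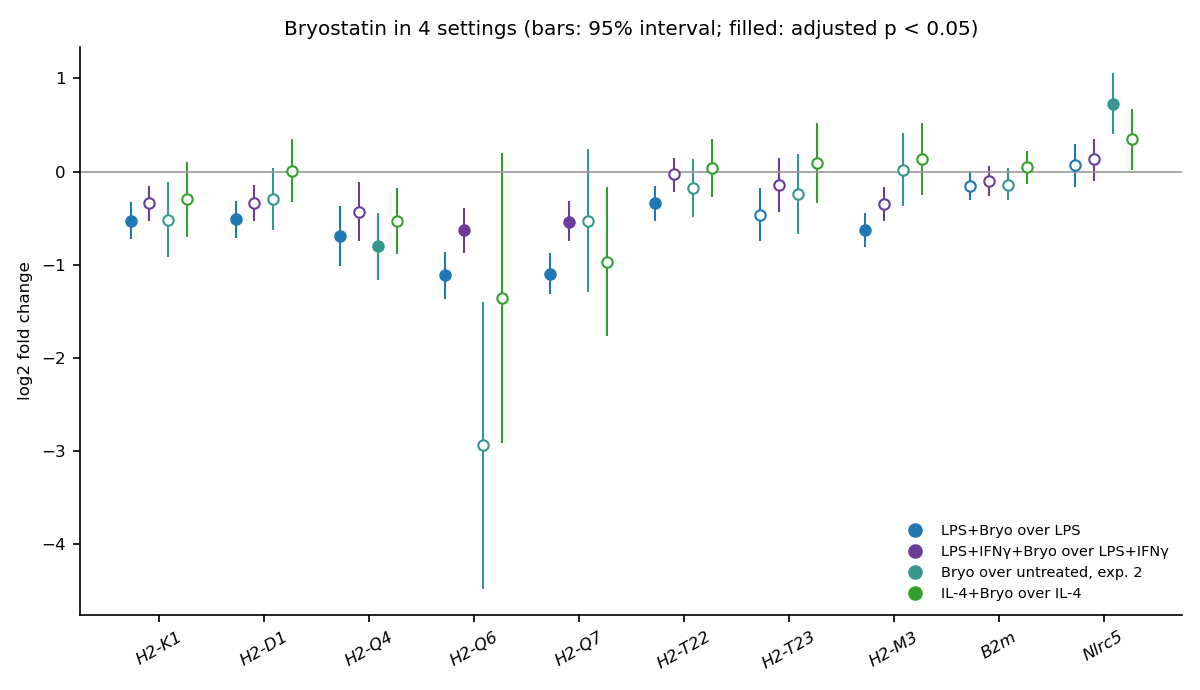
Log2 fold change of each member with bryostatin (y axis) in 4 settings, each against the same setting without it. Bars are 95% intervals and filled points have an adjusted p under 0.05. Filled points lie below 0 for 7 heavy chains on LPS, for H2-Q6 and H2-Q7 on LPS with IFNγ and for H2-Q4 with bryostatin alone. A filled point lies above 0 for Nlrc5 with bryostatin alone.

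In experiment 2, which had no LPS, bryostatin alone raised Nlrc5 and lowered H2-Q4. Nlrc5 had 3.86, 3.67 and 3.77 CPM with bryostatin, against 2.21, 2.36 and 2.22 CPM in untreated glia. The groups did not overlap, and the log2 fold change was 0.73 ± 0.17 (edgeR adjusted p = 0.039). H2-Q4 went the other way, with 10.5, 10.3 and 8.96 CPM with bryostatin, against 22.8, 15.4 and 13.8 CPM in untreated glia, a log2 fold change of -0.80 ± 0.18 (edgeR adjusted p = 0.038). These were the 2 members called, beside 3.62% of the 15604 genes tested in experiment 2 (2.11% higher, 1.51% lower), and neither call held without both untreated libraries numbered 1, where Nlrc5 was at 0.70 (0.066) and H2-Q4 at -0.57 (0.056). The Nlrc5 call was also lost without any 1 of the 6 libraries (0.056 to 0.12), and the H2-Q4 call without any 1 bryostatin library (0.056 to 0.13).

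EdgeR called no other member for bryostatin alone. Group means of the others in experiment 2 lay between 116 and 142 CPM for H2-D1, 30.7 and 38.2 for H2-T22, 19.6 and 25.1 for H2-T23, 5.49 and 6.03 for H2-M3, 366 and 410.5 for B2m, and 0.33 and 0.717 for H2-Q7. H2-K1 with bryostatin was at -0.52 ± 0.21 (95% interval -0.92 to -0.11; edgeR adjusted p = 0.2). H2-Q6 was read 0, 3 and 2 times in the bryostatin libraries, against 22, 9 and 10 times in untreated ones. Its log2 fold change of -2.94 ± 0.79 rests on those few reads and was not called by edgeR (adjusted p = 0.067), though it was by DESeq2 (0.026). Of astrocyte markers 4 of 6 fell and 1 rose with bryostatin, 1 oligodendrocyte lineage marker fell, and no microglial marker was called. The part of these shifts was not tested.

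With IL-4, no member was called by edgeR or DESeq2, with 0 at an unadjusted p under 0.05, beside 0.583% of genes called. H2-K1 had 144, 172 and 174 CPM with IL-4, against 241, 148 and 149 CPM in untreated glia, with a 95% interval of -0.54 to 0.26 for the log2 difference. Nlrc5 had 2.65, 3.00 and 3.04 CPM with IL-4, with an interval of 0.02 to 0.69. That interval leaves out 0 although the unadjusted p of edgeR's F test was 0.061. Given with bryostatin, IL-4 left H2-Q4 at 9.27, 9.62 and 11.0 CPM, a log2 fold change of -0.80 ± 0.18 against untreated glia (edgeR adjusted p = 0.018). Nlrc5 was again higher, at 4.07, 3.66 and 3.30 CPM and 0.70 ± 0.17 (0.022), and H2-Q6, on 5, 1 and 2 reads, was the third member called, at -2.57 ± 0.73 (0.043), beside 11.2% of genes (6.15% higher, 5.09% lower). H2-Q6 kept its call in 4 of 12 alternatives and lost it with the replicate block (0.079), without both untreated libraries numbered 1 (0.13) and without any 1 of the IL-4 with bryostatin libraries (0.10 to 0.14). The calls of H2-Q4 and Nlrc5 were lost in a fit of only the compared groups (0.088 and 0.11), in which H2-Q6 did not pass the filter, and without library 1 (0.08 and 0.11) or 2 (0.06 and 0.062) of the same group. H2-Q7 was at -1.15 ± 0.41 and was not called (0.092). The 3 bryostatin and IL-4 contrasts share their untreated libraries. With IL-4 alone 1 of 6 microglial markers fell. With IL-4 and bryostatin 3 of 6 microglial and 4 of 6 astrocyte markers fell, and 1 oligodendrocyte lineage marker rose and 1 fell. The part of these shifts was not tested.

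When bryostatin was added to IL-4, edgeR called no member, with 2 at an unadjusted p under 0.05 and 0 called by DESeq2, beside 4.13% of genes called. Of all 15604 genes tested, 2576 had an unadjusted p under 0.05. H2-Q7 was at -0.97 ± 0.41, and H2-Q4 was at -0.53 ± 0.18 (edgeR adjusted p = 0.15). Of 6 astrocyte markers 3 fell and 1 rose in this comparison. In the other lists 1 microglial and 1 oligodendrocyte lineage marker fell and 1 neuronal marker rose, and the part of these shifts was not tested. For IL-4 added to bryostatin edgeR called no member either, with 0 at an unadjusted p under 0.05 and 0 in DESeq2, beside 0.91% of genes. The interaction of bryostatin and IL-4 gave the same 0 counts, beside 0.0% of genes.

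The genes that supply peptides to class I rose with LPS and with IFNγ as the heavy chains did. Of all genes tested, 19.5% were called higher with LPS, 19.2% were called higher with IFNγ on LPS, and 3.55% were called lower with bryostatin on LPS. All 8 genes of peptide transport and loading (Tap1, Tap2, Tapbp, Tapbpl, Erap1, Calr, Canx and Pdia3) rose with LPS, at a median of 1.72, and again with IFNγ on LPS, at 0.95. With bryostatin on LPS 4 fell and none rose, at a median of -0.29 over the list. Tap1, a subunit of the peptide transporter, was at 193 ± 8.88 CPM with LPS and bryostatin, against 276 ± 11.6 CPM with LPS, a log2 fold change of -0.52 ± 0.11 (edgeR adjusted p = 0.0068). Tapbpl, a peptide editor, fell by 0.41, Tap2 by 0.40 and Erap1, which trims peptides, by 0.36. All 5 genes of the immunoproteasome and its activator rose with LPS, at a median of 2.94, and with IFNγ on LPS, at 1.18. With bryostatin on LPS, Psmb9 (-0.55 ± 0.13) and Psmb8 (-0.43 ± 0.12) fell, both lost in 4 of the 6 fits that left out 1 library. With IFNγ present, edgeR called none of the 8 or the 5 genes for bryostatin, with 3 and 0 at an unadjusted p under 0.05 and 1 and 0 called by DESeq2. Such an unadjusted p was found for 2447 of all 16073 genes, and edgeR called 3.38% of them. In the 3 catalytic subunits that the immunoproteasome replaces, the median was 0.45 with LPS.

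The DNA-binding partners of Nlrc5 had smaller estimates than Nlrc5 itself. Of 8 RFX, CREB/ATF and NF-Y genes, 4 rose and 1 fell with LPS, at a median of 0.22, and 3 were called without LPS library 2 or 3 or untreated library 3. Of all genes tested, 38.4% were called either way with LPS (19.5% higher) and 36.0% with IFNγ on LPS (19.2% higher). Whether the lists of this paragraph differ from all genes was not tested. IFNγ on LPS raised 5 and lowered 1, the highest being Nfyb at 0.83 ± 0.07. With bryostatin on LPS, edgeR called none of the 8, with 1 at an unadjusted p under 0.05 and 1 called by DESeq2. Of 14 genes of interferon signalling, 12 rose and 1 fell with LPS, and 10 rose and 2 fell with IFNγ on LPS. Irf1, an activator of class I promoters, was at 1324 CPM with LPS and IFNγ, against 112 CPM with LPS (3.56 ± 0.11). It fell with bryostatin on LPS, to 73.7 ± 5.43 CPM, against 112 ± 6.30 CPM with LPS alone (-0.61 ± 0.10, edgeR adjusted p = 0.0013), as did Ifngr1 (-0.31 ± 0.09). The other 12 of the 14 genes were not called for bryostatin on LPS, and the list median was -0.09. Without both untreated libraries numbered 1, 4 of the 14 were called, all lower. All 5 NF-κB subunit genes rose with LPS, at a median of 1.30, and edgeR called none of them for bryostatin on LPS, with 3 at an unadjusted p under 0.05 and 3 called lower by DESeq2. For bryostatin on LPS, 3099 of all 16073 genes had an unadjusted p under 0.05, and edgeR called 6.89% either way (3.55% lower).

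Other class I-like genes gave a mixed picture. Of 21 listed, 17 were in the table and 12 were tested in experiment 1, and 7 rose and none fell with LPS. Of all genes 19.5% were called higher with LPS and 38.4% either way. H2-Q5, another Qa gene, had 8.33 ± 0.23 with LPS, 1.29 ± 0.11 with IFNγ on LPS and -0.75 ± 0.11 with bryostatin on LPS. MHC class II genes, set beside class I, gave lower estimates with bryostatin, a difference that was not tested. On LPS, 5 of 7 class II genes fell, at a list median of -1.39, with H2-Aa at -3.08 ± 0.34 and the invariant chain Cd74 at -1.82 ± 0.14. With LPS and IFNγ, 6 of 7 fell, at a median of -0.63, although 1 or 2 were called without library 1 or 2 of the group given all 3 agents. Bryostatin lowered 3.55% of all genes on LPS and 1.58% on LPS with IFNγ. Ciita, the class II counterpart of Nlrc5, was at 70.1 CPM with LPS and IFNγ, against 2.46 CPM with LPS. Of 4 listed myeloid receptors (Pirb, Lilrb4a, Klra2 and Lrp1), Pirb, a receptor for class I (4.44 ± 0.17) and Klra2 (3.78 ± 0.18) rose with LPS, and Klra2 fell by 0.62 with bryostatin on LPS.

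Likeness of pattern was measured as the root mean square difference in log2 fold change over the 7 treated groups, each against its own untreated group, among 11943 protein-coding genes. For Nlrc5 the closest gene was Mlkl, at 0.39, followed by C2, Lgi2, Bst1 and Tnfaip2, at 0.55 to 0.64. H2-K1 had closer neighbours, Xaf1 at 0.20, H2-T22 at 0.21, Ube2l6 at 0.22, H2-D1 at 0.28 and Il18bp at 0.35. H2-M3 was closest to Trim21, at 0.14, then Birc3, Sp140, Gsdmd and Tor3a, at 0.17 to 0.20. The treated groups of an experiment share their untreated libraries, so these distances are a description.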

How the data were processed

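Polyadenylated RNA of mixed glia was sequenced in 27 unstranded libraries, per the labels' protocols. The submitters' processing notes name fastp, STAR and featureCounts and the build mm10 without versions. All tests rest on the gene counts that the authors deposited, which are raw reads without normalization and come with gene lengths and positions. The deposited FPKM values were not used. The number of columns from samples outside the series was 0.

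The test was edgeR's quasi-likelihood F test (edgeR 4.0.16, limma 3.58.1, R 4.3.3) after filterByExpr on the groups, with TMM factors and a robust dispersion fit. A separate model per experiment held its groups as the only term and was tested on simulated data. Benjamini-Hochberg adjustment ran over every gene tested in a comparison, and an adjusted p under 0.05 counts as called. Fold changes are on the log2 scale with an SE, 95% intervals are 1.96 SE either side, and levels are CPM. The SE is the absolute log2 fold change divided by the square root of F. Such intervals are approximate and somewhat narrower than the F test implies. An interval can therefore leave out 0 at an unadjusted p above 0.05. Motifs, sums and figures were made in Python 3.11.15 (pandas 2.3.3, numpy 2.4.6, matplotlib 3.10.9). Promoter sequences are those of RefSeq on GRCm38.p6. Same-numbered libraries deviated together, with every correlation above 0.1, in 1 comparison, IL-4 with bryostatin against bryostatin (0.429, 0.534 and 0.164), and the labels give no reason for that pairing.

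The alternatives tried were a fit of only the compared groups, a replicate block, edgeR without its low count filter, edgeR with size factors from DESeq2 (1.42.0), DESeq2 itself, each library left out in turn, both untreated libraries numbered 1 left out, and these with the bryostatin and IL-4 with bryostatin libraries numbered 2 left out. For the lists of pathway genes the same alternatives were chosen after seeing the data. The members and lists were chosen with earlier results of these data known. Of each list, up to 4 called genes per comparison were eligible to be named, those with the largest absolute change whose groups did not overlap, and some are left out for length. The genes nearest in pattern are the 5 of smallest distance among protein-coding genes whose highest group mean reached 5 CPM.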

Additional observations from a re-analysis of the deposited data

How the results depend on the processing

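Of 1975 values of single members under the alternatives, 1900 stayed on their side of the threshold, 50 lost the call and 25 gained it. No called value changed sign, while 49 values that were not called did. All 10 members were called under every alternative in the 4 comparisons of LPS groups with untreated glia and the 2 of IFNγ added to LPS. Another scaling moved the median of all genes by at most 0.022 on the log2 scale. Depth limits H2-Q6 and H2-Q7 in experiment 2, where a few reads decide a value. Where calls changed, the cause was not tested, except that a fit with fewer libraries estimates the spread from fewer values.

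Fits of only the compared groups gave 3354 genes for bryostatin on LPS, 112 genes and 1 member for the interaction with IFNγ, 9 genes and 0 members for bryostatin alone, 41 genes for IL-4, 797 genes and 0 members for IL-4 with bryostatin against untreated glia, and 2703 genes and 2 members for bryostatin on IL-4. The counts with all groups were 1108, 19 and 0, 565 and 2, 91, 1755 and 3, and 644 and 0. DESeq2 gave 856 genes and 5 members for bryostatin on LPS with IFNγ (543 and 2 in edgeR), 95 genes and 1 member for the interaction with IFNγ, 1337 genes for bryostatin alone, 223 for IL-4, 1213 for bryostatin on IL-4, 223 for IL-4 on bryostatin (142 in edgeR) and 4 for the interaction with IL-4 (0 in edgeR). Without the filter on low counts, 4 members were called for bryostatin on LPS with IFNγ, 1 member and 55 genes for the interaction with IFNγ, 1 member for bryostatin alone and 1 for IL-4 with bryostatin against untreated glia.

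Without both untreated libraries numbered 1, counts were 2148 genes and 8 members for bryostatin on LPS, 1380.0 and 6 on LPS with IFNγ, 114 and 1 for the interaction, 429 and 0 for bryostatin alone, 1403 and 2 for IL-4 with bryostatin against untreated glia, 1355 and 1 for bryostatin on IL-4 and 198 and 0 for IL-4 on bryostatin. In experiment 2, the bryostatin and IL-4 with bryostatin libraries numbered 2 deviated together with untreated library 1, at correlations of 0.524 and 0.349. With each other they correlated at 0.534. When these libraries numbered 2 were left out as well, 2284 genes were called for bryostatin alone, 333 for IL-4, 3518 for IL-4 with bryostatin against untreated glia, 2943 and 2 members for bryostatin on IL-4, 253 for IL-4 on bryostatin and 1 for the interaction with IL-4. H2-K1 was then called for bryostatin alone, at -0.46 (adjusted p = 0.0079).

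Leaving out 1 library at a time, members called were 5 to 5 for bryostatin on LPS, 0 to 3 on LPS with IFNγ, 0 to 1 for bryostatin alone, 0 to 3 for IL-4 with bryostatin against untreated glia, and 0 to 0 for IL-4, bryostatin on IL-4, IL-4 on bryostatin and both interactions. Genes called were 5099 to 7032 for LPS, 562 to 689 for bryostatin on LPS, 242 to 434 on LPS with IFNγ, 5 to 19 for the interaction with IFNγ, 188 to 824 for bryostatin alone, 66 to 96 for IL-4, 746 to 2144 for IL-4 with bryostatin against untreated glia, 173 to 371 for bryostatin on IL-4 and 68 to 119 for IL-4 on bryostatin.

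Deviations of same-numbered libraries correlated at -0.276 to 0.300 in experiment 1 and at -0.504 to 0.534 in experiment 2. Of 30 and 18 such pairs, 3 and 6 were over 0.1, the 3 of experiment 1 being those of LPS with bryostatin and LPS with IFNγ. Those groups are not compared with each other, but both enter the interaction with IFNγ. There the replicate block called no member either, H2-Q7 being at an edgeR adjusted p of 0.4. Apart from IL-4 on bryostatin, the numbers did not pair groups that were compared with each other. With a replicate block, 132 genes and 0 members were called for IL-4 on bryostatin, 0 members were called for bryostatin alone, Nlrc5 at an adjusted p of 0.072 and H2-Q4 at 0.073, and the other counts of members stayed within 1.5 times. Of 1782 list counts, 227 moved by more than 1.5 times. Of 72 shares of heavy chains, 51 moved by more than 1 SD when computed without gene length, by at most 2.4 percentage points.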
